A study of Homo sapiens with 16 samples.

Results

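The genes described here encode 8 proteins of the minor spliceosome: ZRSR2, RNPC3, PDCD7, SNRNP25, SNRNP35, SNRNP48, ZMAT5 and ZCRB1. They were chosen by name as proteins that belong to the U11/U12 particle or, for ZRSR2, recognise the 3′ end of its introns, with no measured value in the rule. All 8 were found among the 58735 genes of the count table, and all 8 were among the 22433 genes that passed the filter on low counts. They were measured in IMR32 cells, an established human neuroblastoma line given as wild type (WT) in the labels. Cells were kept for 24 h in DMSO, the vehicle, in 1.25 µM indisulam, in 4 µM alectinib, or in both drugs at those doses. Each of these 4 treatments had 4 libraries of polyadenylated RNA, 16 in all. Indisulam is a molecular glue: it binds DCAF15, a substrate receptor of a ubiquitin ligase, which then takes up and degrades the splicing factor RBM39. Alectinib inhibits the receptor tyrosine kinase ALK. All groups share 1 cell line, and the labels do not say whether the 4 libraries of a treatment came from separate cultures, so the p-values speak only to variation among libraries, part of which may be technical.

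Most human introns are removed by the major spliceosome, but a small class, the U12-type introns, is removed by a separate machine built on the small nuclear RNAs U11, U12, U4atac and U6atac. U11 pairs with the long and strongly conserved 5′ splice site of these introns and U12 with their branch point, and both enter the intron together as one U11/U12 particle. The 7 proteins SNRNP25, SNRNP35, SNRNP48, PDCD7, RNPC3, ZMAT5 and ZCRB1 are found in that particle and not in the U1 and U2 particles that do the same work on major introns. The Sm proteins, the SF3B complex and most proteins of the tri-snRNP serve both machines.

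A pair of these genes carries a known control element, the U11 snRNP-binding splicing enhancer, made of neighbouring copies of the U12-type 5′ splice-site letters to which U11 binds without splicing there. It is shown because it links the genes SNRNP48 and RNPC3 to the particle that their own proteins build. A search of all annotated transcripts of the 8 genes, on the transcribed strand, for 2 copies of the letters TATCCTT separated by 2 to 20 bases found it in these genes only. In the sequences that follow, read 5′ to 3′ from the GENCODE 29 transcripts, the capitals mark the 7 bases of each copy.
SNRNP48: gTATCCTTtttgcaaatgaTATCCTT
RNPC3: gTATCCTTtcttgtcgTATCCTT
The SNRNP48 element lies at GRCh38 chr6:7599736-7599761 on the + strand, is 26 bases long and falls in intron 4 of the 8 introns of the coding transcript, within a transcript annotated as intron-retaining. The RNPC3 element lies at chr1:103553318-103553340 on the + strand, is 23 bases long, and falls after the coding sequence, in the 3′ UTR of 2 coding transcripts and in the last intron of another. The copies are 11 bases apart in SNRNP48 and 8 bases apart in RNPC3. Of 19684 genes with a coding transcript, 27 (0.137%) held the same arrangement in an annotated transcript. Introns that no annotated exon covers were not read, and the counts are per gene, so they do not show which of these transcripts were made.

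In the vehicle, the 8 genes ran from 1.88 to 19.8 RPKM. Levels between genes are compared per length, as RPKM, that is, CPM divided by the exonic length in kb, where CPM is the count per 1e6 counts after TMM scaling. ZCRB1, an RNA-binding protein of the U11/U12 particle, stood at 19.8 ± 1.08 RPKM (SD, n = 4, as for all levels), and PDCD7, which bridges the U11 proteins and RNPC3, at 19.1 ± 0.346. The ranges of these genes overlapped, and both lay above SNRNP25 at 11.99 ± 1.26 RPKM. SNRNP48 at 4.32 ± 0.158 and RNPC3 at 4.22 ± 0.136 overlapped in turn, as did SNRNP35 at 3.35 ± 0.297 and ZRSR2 at 3.09 ± 0.13. ZMAT5 was lowest at 1.88 ± 0.321 RPKM and overlapped none of the others. The median over 14728 tested protein-coding genes was 4.46 RPKM. ZCRB1 and PDCD7 stood at the 85.96 and 85.3 percentiles of these genes and ZMAT5 at the 34.1 percentile.

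**Figure D1:**
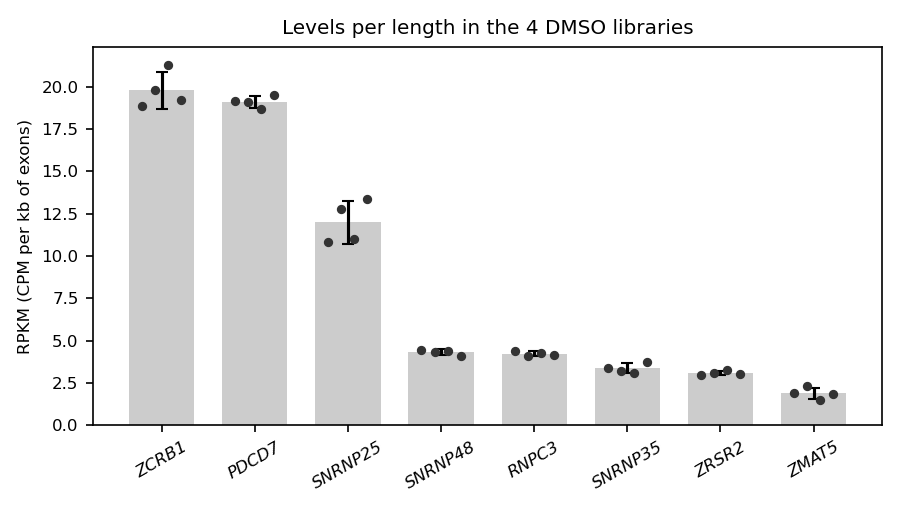
Level per length (RPKM, y axis from 0) of the 8 genes in the DMSO libraries. Bars are means, error bars SD and points the 4 libraries; ZCRB1 and PDCD7 overlap, at means of 19.8 and 19.1, and ZMAT5 is lowest at 1.88.

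Across the treatments the 8 genes did not move as a block. ZRSR2, RNPC3 and PDCD7 rose in indisulam and in the combination, SNRNP25 fell in both, SNRNP35 fell in indisulam alone against DMSO and not in the combination, and ZMAT5 did not pass the test in any comparison. ZRSR2 was the only one of the 8 that was higher in each drug than in DMSO and higher again in the combination than in either drug. The tests are from edgeR's quasi-likelihood fit over all 16 libraries, with two-sided p-values adjusted by the Benjamini-Hochberg method over 22433 genes and a call at an adjusted p under 0.05; log2 differences are given ± SE.

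**Figure D2:**
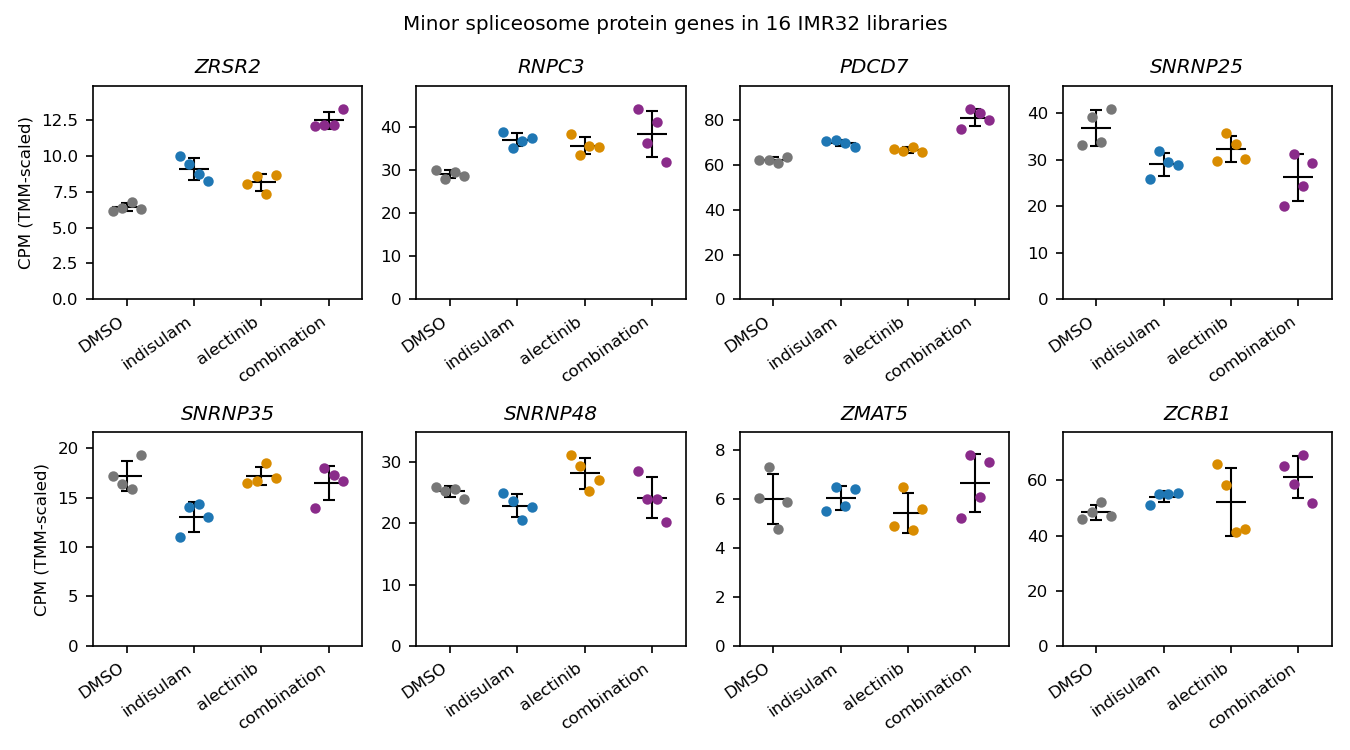
CPM (TMM-scaled, y axes from 0) of each gene in each library, by treatment. Points are libraries in order of replicate 1 to 4, the dash is the mean and the bar the SD (n = 4); the ZRSR2 groups do not overlap between DMSO, either drug and the combination, and ZCRB1 in alectinib splits into 2 high and 2 low libraries.

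ZRSR2 recognises the 3′ splice site of U12-type introns, the role that U2AF1 has on major introns. The gene lies at chrX:15790472-15823260 on the + strand. Its level was 6.17, 6.38, 6.8 and 6.32 CPM in DMSO replicates 1 to 4, and 10.01, 9.48, 8.72 and 8.26 CPM in indisulam. In alectinib it was 8.03, 8.63, 7.36 and 8.65 CPM, and in the combination 12.1, 12.2, 12.2 and 13.3 CPM. Every treated library lay above every DMSO library, and every combination library above every library of either drug alone. The log2 difference from DMSO was 0.51 ± 0.09 in indisulam (adjusted p = 9.98e-05), 0.35 ± 0.09 in alectinib (adjusted p = 0.00932) and 0.96 ± 0.09 in the combination (adjusted p = 5.12e-09), a 1.94-fold rise. The combination exceeded indisulam by 0.45 ± 0.09 (adjusted p = 0.000413) and alectinib by 0.61 ± 0.09 (adjusted p = 5.31e-06). The interaction asks how far the log2 change in the combination departs from both single-drug changes added together; for ZRSR2 it was 0.10 ± 0.13 (adjusted p = 0.678), so no such departure was detected. No other scaling, tool, filter or left-out library among the 23 alternatives ended any of the 5 ZRSR2 calls. A limit lies in the sequence: 17.1% of the 50-base words of ZRSR2 transcripts also occur in annotated transcripts of SRP19, whose locus holds the ZRSR2 copy ZRSR2P1. ZRSR2P1 had no count in any library, and SRP19 stood at 20.97, 25.5, 23.3 and 56.5 CPM on average in the vehicle, indisulam, alectinib and combination groups, and its part in the ZRSR2 counts was not tested.

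RNPC3 binds U12 and, through PDCD7, ties it to U11. The gene lies at chr1:103525691-103555239 on the + strand. It stood at 30.04, 27.9, 29.4 and 28.6 CPM in DMSO and at 38.7, 35.1, 36.7 and 37.3 CPM in indisulam. It stood at 38.3, 33.3, 35.5 and 35.2 CPM in alectinib and at 44.1, 36.1, 41.1 and 31.9 CPM in the combination. Every treated library was above every DMSO library, while the 3 treated groups overlapped one another. The log2 differences from DMSO were 0.35 ± 0.08 in indisulam (adjusted p = 0.00115), 0.30 ± 0.08 in alectinib (adjusted p = 0.011) and 0.40 ± 0.08 in the combination (adjusted p = 0.000187). The combination was not called against indisulam (0.05 ± 0.08, adjusted p = 0.664) or alectinib (0.11 ± 0.08, adjusted p = 0.289). Without combination replicate 4, the lowest of its group, the difference from alectinib was called at 0.18 (adjusted p = 0.0461, against a range of 0.0461 to 0.764 over the alternatives). The interaction was -0.25 ± 0.12, with an unadjusted p of 0.0453 and an adjusted p of 0.174. RNPC3 shares 1295 of its 6867 exonic bases (18.9%) with AMY2B on the same strand, so reads from that stretch cannot be assigned from the counts. AMY2B itself averaged 4.35 CPM with the vehicle, 2.38 with indisulam, 10.9 with alectinib and 4.27 with both drugs.

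PDCD7 links the U11 proteins to RNPC3 within the particle. The gene lies at chr15:65117379-65133836 on the - strand and had the lowest spread of the 8 in every group, with an SD of at most 4.67% of the mean, and 62.5, 62.4, 60.97 and 63.7 CPM in DMSO. It stood at 70.97, 71.3, 69.7 and 68.1 CPM in indisulam, 67.4, 66.2, 68.2 and 65.7 CPM in alectinib, and 76.4, 85.2, 83.3 and 80.4 CPM in the combination. The DMSO libraries were below all others and the combination libraries above all others. The rise in the combination was 0.38 ± 0.05 on the log2 scale, or 1.3-fold (adjusted p = 1.85e-06), and in indisulam 0.17 ± 0.05 (adjusted p = 0.0148). The difference in alectinib, 0.10 ± 0.05, was not called (adjusted p = 0.208) although the groups did not overlap. The combination was higher than indisulam by 0.22 ± 0.05 (adjusted p = 0.00285) and than alectinib by 0.28 ± 0.05 (adjusted p = 0.000108). The indisulam call was lost when no filter on low counts was used (adjusted p = 0.111, against a range of 0.000118 to 0.111), and alectinib was called under upper-quartile scaling (0.18, adjusted p = 0.0146, against a range of 0.0146 to 0.507).

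SNRNP25 is a U11-associated protein of the particle. The gene lies at chr16:53010-57669 on the + strand and stood at 33.1, 39.05, 33.7 and 40.9 CPM in DMSO. It stood at 25.8, 31.8, 29.4 and 28.9 CPM in indisulam, 29.8, 35.8, 33.3 and 30.1 CPM in alectinib, and 20.1, 31.2, 24.3 and 29.3 CPM in the combination. The indisulam and combination libraries were all below the DMSO libraries, and the alectinib libraries overlapped them. The log2 difference from DMSO was -0.34 ± 0.11 in indisulam (adjusted p = 0.0136), -0.19 ± 0.11 in alectinib (adjusted p = 0.244) and -0.48 ± 0.11 in the combination (adjusted p = 0.000568). The combination was also called lower than alectinib (-0.30 ± 0.11, adjusted p = 0.0247) although these groups overlapped, and not lower than indisulam (-0.14 ± 0.11, adjusted p = 0.326). The indisulam call was lost without DMSO replicate 4 (adjusted p = 0.0582) or indisulam replicate 1 (adjusted p = 0.0521), within a range of 0.000545 to 0.07 over the alternatives. The call against alectinib was lost in 7 of 23 alternatives, among them those without alectinib replicates 2 or 3 (-0.25 and -0.29) and without combination replicates 1 or 3 (-0.19 and -0.26). The call against DMSO in the combination held in all 23. Another gene, POLR3K, overlaps 5% of the exonic bases of SNRNP25 on the opposite strand and stood at 23.98, 16.9, 18.6 and 14.2 CPM in DMSO, indisulam, alectinib and the combination.

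SNRNP35 is the minor-spliceosome counterpart of SNRNP70, the U1 protein. The gene lies at chr12:123457641-123473154 on the + strand. It stood at 17.2, 16.4, 15.9 and 19.3 CPM in DMSO, 11.04, 14.1, 14.4 and 13.03 CPM in indisulam, 16.5, 16.7, 18.5 and 16.96 CPM in alectinib, and 14.01, 17.97, 17.3 and 16.7 CPM in the combination. All indisulam libraries were below all DMSO and alectinib libraries, whereas the combination overlapped every other group. The log2 difference from DMSO was -0.39 ± 0.10 in indisulam (adjusted p = 0.00191), -0.00 ± 0.10 in alectinib (adjusted p = 0.981) and -0.06 ± 0.10 in the combination (adjusted p = 0.613), and the combination was higher than indisulam by 0.33 ± 0.10 (adjusted p = 0.00906). The interaction in the edgeR fit was 0.33 ± 0.14, with an unadjusted p of 0.0224 and an adjusted p of 0.11, and was not called. It was called without combination replicate 1, the lowest of its group (0.41, adjusted p = 0.0374, against a range of 0.0374 to 0.243). With all libraries it was also called under an offset for GC content, described below (0.345 ± 0.118, adjusted p = 0.039). The gene RILPL1 overlaps 40.1% of the exonic bases of SNRNP35 on the opposite strand, and whether strand was used in counting is not given in the sources used here. RILPL1 stood at 10.4, 10.8, 12.6 and 12.1 CPM in DMSO, indisulam, alectinib and the combination. SNRNP70 rose in the combination by 0.40 ± 0.09 (adjusted p = 0.00051) and was not called in indisulam (0.07 ± 0.09, adjusted p = 0.581).

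SNRNP48 takes part in recognition of the U12-type 5′ splice site and carries the enhancer shown above. The gene lies at chr6:7590199-7611967 on the + strand and stood at 25.96, 25.3, 25.6 and 23.9 CPM in DMSO. It stood at 25.02, 23.7, 20.5 and 22.6 CPM in indisulam, 31.1, 29.4, 25.3 and 27.1 CPM in alectinib, and 28.5, 23.9, 24.04 and 20.2 CPM in the combination. Every alectinib library lay above every indisulam library, and all other pairs of groups overlapped. No difference from DMSO was called (-0.14 ± 0.09 with indisulam, 0.16 ± 0.09 with alectinib and -0.06 ± 0.09 with both, with adjusted p of 0.242, 0.221 and 0.591). It was called lower in the combination than in alectinib (-0.22 ± 0.09, adjusted p = 0.0427), but that call was lost in 11 of 23 alternatives, among them those without DMSO replicate 3 (-0.22), without alectinib replicates 1, 2 or 4 (-0.18, -0.21 and -0.23) and without combination replicates 2, 3 or 4 (-0.22, -0.22 and -0.15). With an offset for GC content, described below, SNRNP48 was called lower in indisulam than in DMSO (-0.22 ± 0.07, adjusted p = 0.0127). In alectinib it was then called higher than in DMSO (0.23 ± 0.07, adjusted p = 0.0148). The combination was then called higher than indisulam (0.18 ± 0.07, adjusted p = 0.0397).

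ZMAT5 and ZCRB1 are zinc-finger proteins of the particle. ZMAT5 lies at chr22:29730956-29767011 on the - strand and, with 269 to 461 counts per library, had the fewest counts of the 8. It stood at 6.03, 7.3, 4.79 and 5.9 CPM in DMSO, 5.51, 6.51, 5.73 and 6.41 CPM in indisulam, 4.9, 6.51, 4.72 and 5.59 CPM in alectinib, and 5.23, 7.79, 6.1 and 7.51 CPM in the combination. All groups overlapped, and the difference in the combination was 0.15 ± 0.14 (adjusted p = 0.387). The difference of the combination from alectinib, 0.30 ± 0.14, missed the threshold (adjusted p = 0.0866); it was called without alectinib replicate 2 (0.39, adjusted p = 0.0358) and without combination replicate 1 (0.40, adjusted p = 0.0243), within a range of 0.00272 to 0.262. CABP7 overlaps 12.5% of its exonic bases on the opposite strand and stood at 0.792 to 1.37 CPM on average in the 4 groups.

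ZCRB1 lies at chr12:42312078-42326118 on the - strand. It stood at 46.1, 48.5, 52.1 and 47.1 CPM in DMSO and at 50.99, 54.9, 55.01 and 55.5 CPM in indisulam. It stood at 66.1, 58.5, 41.2 and 42.4 CPM in alectinib and at 65.2, 58.6, 69.1 and 51.8 CPM in the combination. In alectinib, replicates 1 and 2 lay above every DMSO library and replicates 3 and 4 below every one. ZCRB1 was called higher in the combination than in DMSO, by 0.34 ± 0.11 (adjusted p = 0.014), although combination replicate 4 lay within the DMSO range. That call was lost without combination replicate 3 (0.27, adjusted p = 0.0596, against a range of 0.00021 to 0.0596). It was not called in indisulam (0.16 ± 0.11, adjusted p = 0.267), in alectinib (0.10 ± 0.11, adjusted p = 0.562) or in the combination against alectinib (0.23 ± 0.11, adjusted p = 0.0885). Without alectinib replicate 1 the last of these was called at 0.37 (adjusted p = 0.00534), and without combination replicate 4 at 0.31 (adjusted p = 0.0316), within a range of 0.00534 to 0.34.

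**Figure D3:**
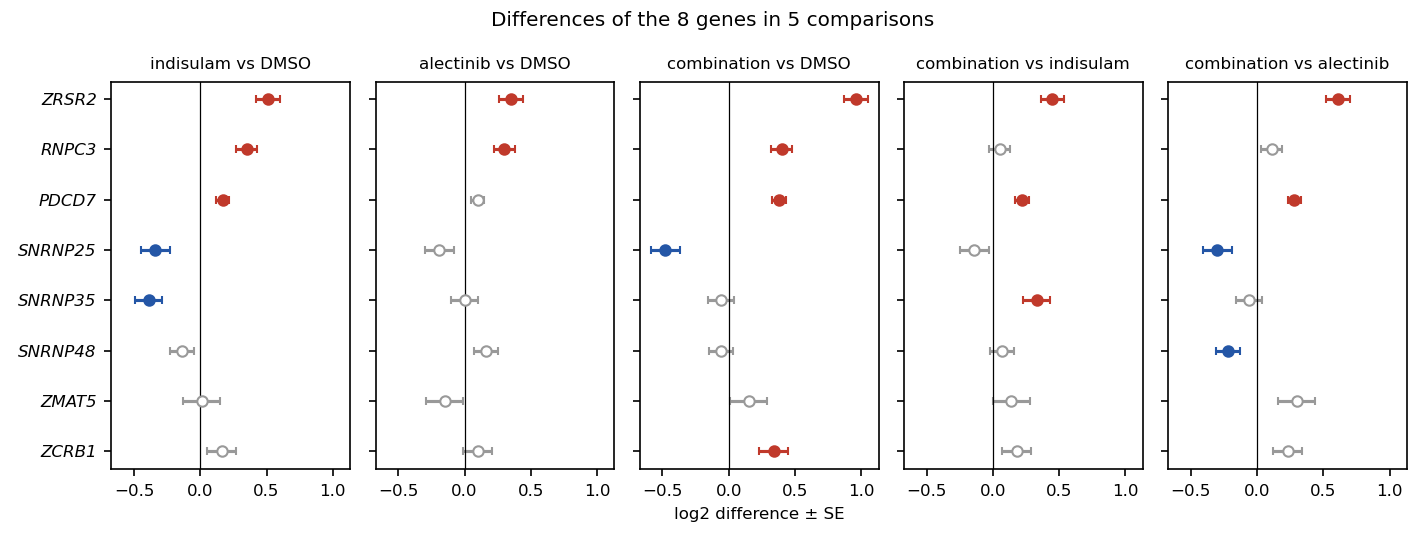
Log2 difference ± SE (x axis) of the 8 genes in 5 comparisons. Filled points passed the test (red higher, blue lower) and open points did not; ZRSR2 is filled in every panel, at 0.96 in the combination against DMSO, and ZMAT5 in none.

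Counted together, 3 of the 8 genes were higher in indisulam than in DMSO and 2 lower, where 23% and 24.8% of all tested genes were higher and lower. In alectinib 2 were higher and 0 lower by the edgeR test, where 9.99% and 12.3% of all tested genes were called; at an unadjusted p under 0.05 no member was lower, and DESeq2 called none lower. In the combination 4 were higher and 1 lower, against 29.7% and 30.6% of all tested genes. The combination was above indisulam for 3 genes and below it for 0 by the edgeR test (18.9% and 20.1% of all tested genes), with none below it at an unadjusted p under 0.05 or by DESeq2. Against alectinib 2 were higher and 2 lower (26.5% and 29%). No interaction of the 8 was called by DESeq2 or by edgeR over all 16 libraries without the GC offset (6.85% higher and 6.63% lower among all tested genes). At an unadjusted p under 0.05 in that edgeR fit SNRNP35 was higher and RNPC3 lower. The median log2 difference of the 8 genes was 0.24 in the combination against 0.007 over all tested genes, 0.08 against -0.011 in indisulam, and 0.10 against 0.012 in alectinib. The mitochondrial share of the counts moved with indisulam as well, at 5.23% to 5.77% in DMSO, 6.27% to 6.67% in indisulam and 6.41% to 6.7% in the combination, without overlap between DMSO and either of these groups, and its part in these differences was not tested. The comparisons against DMSO share the DMSO libraries, and those of the combination share its libraries. In a bulk sample, fewer cells and less RNA per cell cannot be told apart.

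Several of the 8 genes spread widely within groups, and the libraries of a group also differed by the GC content of the genes. Over the protein-coding genes with a mean of at least 5 CPM, the 2127 GC-richest and the 2127 GC-poorest were set beside each other in every library, as the median deviation of log2 CPM from the mean of the library's own group. The GC-rich minus GC-poor difference ran from -0.27 to 0.33 over the 16 libraries, and in combination replicates 1 to 4 it was -0.26, 0.19, -0.27 and 0.33. SNRNP25 (60.3% GC in its longest coding transcript) and ZMAT5 (59.8%) are GC-rich, and ZCRB1 (35.1%), SNRNP48 (38.1%) and RNPC3 (38.7%) are GC-poor. PDCD7 (54.2%), SNRNP35 (49.97%) and ZRSR2 (49.4%) lie between. SNRNP25 deviated in the direction of its library's difference in 15 of 16 libraries, SNRNP35 in 13, ZMAT5 in 11 and PDCD7 in 10. ZRSR2, close to SNRNP35 in GC content, did so in 7, SNRNP48 and ZCRB1 in 6 each and RNPC3 in 2. The tallies count signs only. The Pearson correlation of the deviations with the library difference was 0.76 for SNRNP25, 0.63 for ZMAT5, 0.56 for SNRNP35 and 0.45 for PDCD7. It was -0.80 for RNPC3, -0.61 for SNRNP48 and -0.56 for ZCRB1, and 0.06 for ZRSR2. The split of ZCRB1 in alectinib, with deviations of 0.38, 0.20, -0.31 and -0.27 in replicates 1 to 4, stood beside library differences of -0.17, 0.08, 0.14 and -0.06 and did not follow them throughout. Between groups, the median log2 difference in indisulam was -0.20 over the GC-richest and 0.09 over the GC-poorest genes, and in the combination -0.27 and -0.04. With an offset that removes this difference from every library, an alternative added after the data were seen, the fall of SNRNP25 was -0.16 ± 0.07 in indisulam (adjusted p = 0.07, no longer called) and -0.28 ± 0.07 in the combination (adjusted p = 0.00199). ZMAT5 was then called higher in the combination than in DMSO (0.36 ± 0.12, adjusted p = 0.0123, against a range of 0.0123 to 0.756 over the alternatives). SNRNP48 was called lower in indisulam and higher in alectinib than in DMSO, as given above. The ZRSR2 rise in the combination was 0.99 ± 0.09 under the same offset and the PDCD7 rise 0.47 ± 0.05. The offset also takes out any difference between treatments that follows GC content.

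**Figure D4:**
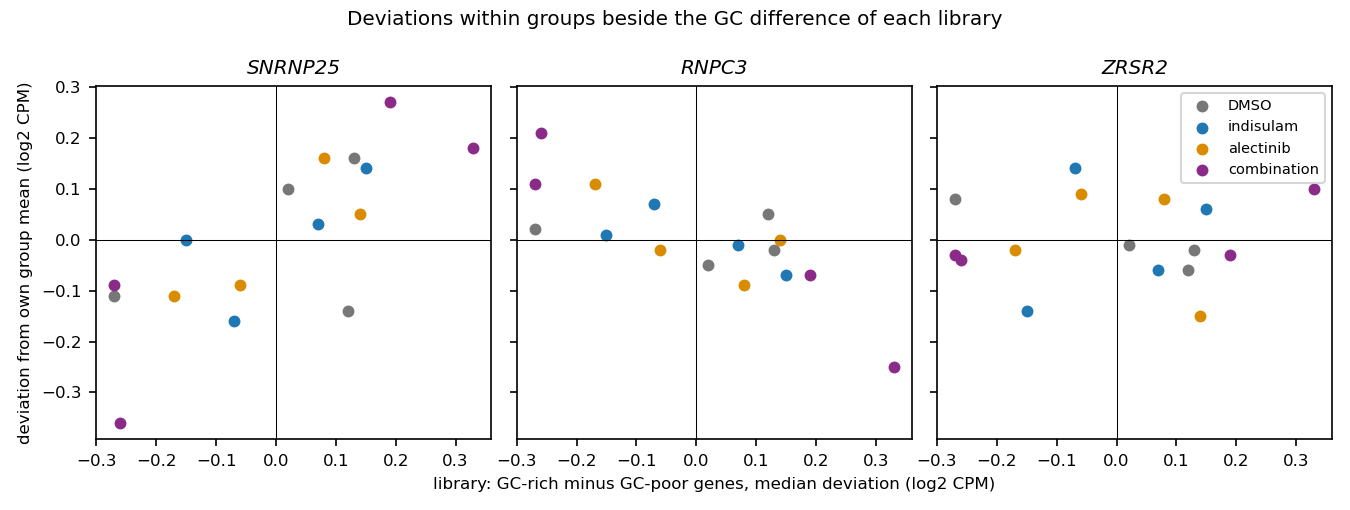
Deviation of SNRNP25, RNPC3 and ZRSR2 from their own group mean (y axis, log2 CPM) beside the GC-rich minus GC-poor difference of each library (x axis, log2 CPM). Each point is 1 of 16 libraries, coloured by treatment; SNRNP25 shares the sign of the x axis in 15 of 16 libraries, RNPC3 in 2 and ZRSR2 in 7.

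Of 7 further proteins tied to the minor spliceosome, 4 rose and 2 fell in the combination against DMSO, with a median log2 difference of 0.32. Over all tested genes, beside which this and the following lists are to be read, 29.7% were higher and 30.6% lower in that comparison, with a median of 0.007. TXNL4B, a thioredoxin-like relative of the tri-snRNP protein TXNL4A, rose by 1.08 ± 0.09 (adjusted p = 5.26e-10), and SCNM1, a zinc-finger splicing factor of U12-type introns, by 0.89 ± 0.10 (adjusted p = 3.22e-08). ARMC7, known as a partner of RBM48, rose by 0.79 ± 0.09 (adjusted p = 3.3e-08), and RBM41, an RNA-binding protein related to RNPC3, by 0.32 ± 0.10 (adjusted p = 0.00741). CRIPT fell by 0.86 on the log2 scale (SE 0.11, adjusted p = 2.06e-07) and CCDC84, also called CENATAC and known for AT-AC introns, fell by 0.63 (SE 0.09, adjusted p = 1.1e-06). Both were already lower in indisulam, CRIPT by -1.01 ± 0.11 (adjusted p = 3.9e-08) and CCDC84 by -0.61 ± 0.09 (adjusted p = 3.52e-06). RBM48 was lower in indisulam (-0.51 ± 0.09, adjusted p = 3.28e-05) and not called in the combination (0.02 ± 0.09, adjusted p = 0.834), with an interaction of 0.70 ± 0.12 (adjusted p = 0.000549). SCNM1 also showed an interaction, 0.55 ± 0.14 (adjusted p = 0.00894). The small nuclear RNAs themselves could not be followed in these polyadenylated libraries: RNU11 and RNU12 had 0 counts in every library, which allows up to 3 counts per library or 0.0545 CPM in the shallowest, while RNU4ATAC had 103 and RNU6ATAC 7 counts over all 16.

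**Figure D5:**
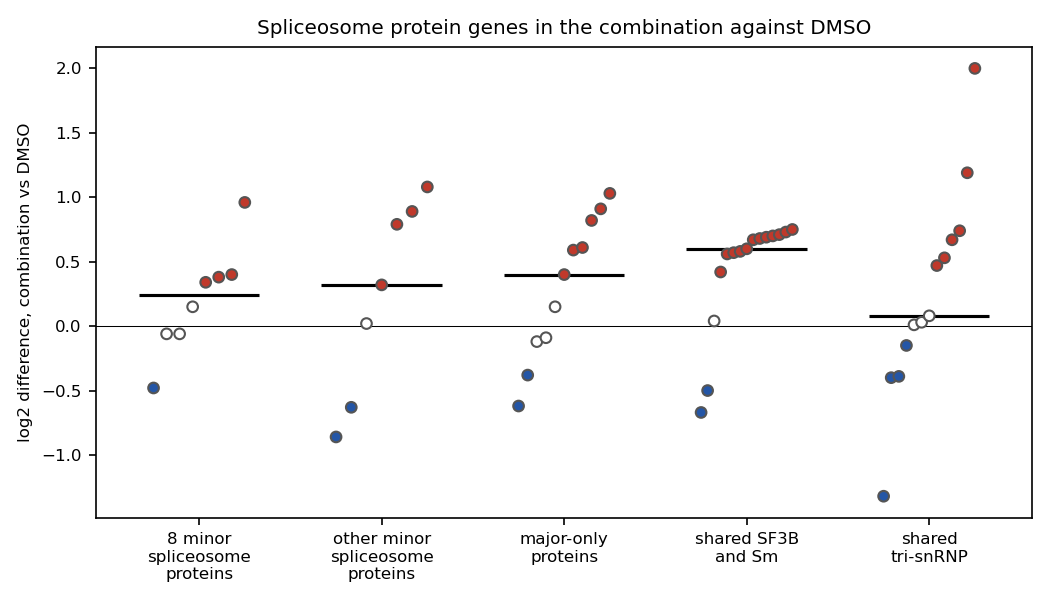
Log2 difference of the combination from DMSO (y axis) for each tested gene of 5 lists of spliceosome proteins. Points are genes, red called higher, blue called lower and white not called, and lines are list medians; the medians run from 0.08 for the shared tri-snRNP proteins to 0.60 for the shared SF3B and Sm proteins, with 0.24 for the 8 minor spliceosome proteins.

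Among 11 proteins of the U1, U2 and U2AF machinery of major introns, 6 rose and 2 fell in the combination, with a median of 0.40. U2AF2, the large U2AF subunit, rose by 0.91 ± 0.09 (adjusted p = 5.72e-09), SNRPC of U1 rose by 0.61 ± 0.08 (adjusted p = 2.62e-07), and SF3A3 of U2 fell by 0.62 (SE 0.06, adjusted p = 3.12e-09). U2AF1, the major-intron counterpart of ZRSR2, ran from 32 to 1062 counts per library and has a near-identical annotated copy, U2AF1L5, so its difference of -0.12 ± 0.67 (adjusted p = 0.887) is uncertain. Of 15 SF3B and Sm proteins that both spliceosomes use, 12 rose and 2 fell, with a median of 0.60, among them SNRPE at 0.75 ± 0.07 (adjusted p = 1.62e-09), SNRPD3 at 0.67 ± 0.07 (adjusted p = 6.04e-09) and SF3B3 at -0.67 ± 0.06 (adjusted p = 3.68e-10). Of 13 shared tri-snRNP proteins 6 rose and 4 fell, with a median of 0.08, from PRPF3 at 2.00 ± 0.06 (adjusted p = 2.89e-17) and PRPF6 at 1.19 ± 0.07 (adjusted p = 6.72e-13) to EFTUD2 at -1.32 ± 0.06 (adjusted p = 4.07e-15). No test of a difference between the lists was made.

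Pearson correlations of log2 CPM over the 16 libraries were taken among 10638 protein-coding genes with a mean of at least 5 CPM. They compare the course over libraries and not the size of a change. The highest with ZRSR2 were those of CYP4F3 (r = 0.978), INPP5D (0.969), UBP1 (0.966), PRPF3 (0.964) and CHMP1B (0.963). CYP4F3 averaged 0.243, 2.29, 1.07 and 19.7 CPM in DMSO, indisulam, alectinib and the combination, so it met the limit only through the combination. The highest with SNRNP25, the member with the largest called fall in the combination, were those of SHD (0.964), YIF1A (0.962), TADA3 (0.961), FARSA (0.959) and MID1IP1 (0.958). PRPF3 stood at 91.4, 195, 170 and 367 CPM on average in DMSO, indisulam, alectinib and the combination. It shares the order of groups with ZRSR2, which is no separate result, because it was picked here by this correlation. These values describe the 16 libraries, which share their treatments and scaling.

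The genes whose introns the particle removes could be read only in part, because without a genome sequence an intron was readable only where an annotated exon of another transcript covers it. Of 247091 introns of coding transcripts of at least 60 bases, 16210 (6.56%) were readable. A 5′ end of ATATCCTT or GTATCCTT with an AC or AG end was found in 47 of them, in 44 genes, and 18 of these, in 18 genes, also held TCCTTAA or TCCTTGA in their last 45 bases. The last 45 bases of 3 such introns follow, 5′ to 3′ as transcribed, with the branch-point letters in capitals, to show the sequence that U12 pairs with and the 3′ end that ZRSR2 recognises.
IFT122: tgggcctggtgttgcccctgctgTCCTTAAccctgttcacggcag
TCEA2: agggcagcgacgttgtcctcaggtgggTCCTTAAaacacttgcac
SLC12A4: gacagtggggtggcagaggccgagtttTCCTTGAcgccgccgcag
These introns lie at chr3:129512413-129514388 (+), chr20:64069822-64070259 (+) and chr16:67950712-67950961 (-) in GRCh38, and that of TCEA2 is of the AT-AC kind. All 18 genes were tested, and in the combination 7 were higher and 6 lower than in DMSO, with a median log2 difference of -0.06; 29.7% of all tested genes were higher and 30.6% lower. IFT122, of the intraflagellar transport machinery, fell by 1.71 (SE 0.10, adjusted p = 3.73e-13), the mitochondrial carrier gene SLC25A30 by 1.27 (SE 0.12, adjusted p = 2.83e-09) and the elongation factor gene TCEA2 by 1.25 (SE 0.11, adjusted p = 6.3e-10) on the log2 scale. The potassium-chloride cotransporter gene SLC12A4 rose by 1.46 ± 0.14 (adjusted p = 2e-09), LMBR1L by 1.00 ± 0.09 (adjusted p = 1.44e-09) and the ubiquitin-like gene UBL5 by 0.74 ± 0.08 (adjusted p = 3.83e-08). Counts per gene do not show whether an intron was retained.

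The libraries held 55.1 to 63.7 M counts (M, 1e6) in 15 cases and 90.2 M in alectinib replicate 1, whose mitochondrial share was 6.73% against 5.13% to 5.39% in the other alectinib replicates. All 10 markers of adrenergic neuroblastoma fixed for the check passed the filter. Their summed level was 4500 to 5070 CPM with the vehicle, 4690 to 5060 with indisulam, 3840 to 4210 with alectinib and 2670 to 3140 with both drugs. MYCN made up much of this sum, at 2440 CPM on average with the vehicle and 1290 with both drugs. The markers differed in level and course: DBH averaged 4.62 CPM with the vehicle, and GATA3 263 with the vehicle and 267 with both drugs. Summed markers of fibroblasts (4 of 5 passed the filter) stayed at or below 12.9 CPM, those of epithelium (1 of 4 passed) at or below 0.678 and those of blood and endothelium (0 of 5 passed) at or below 0.545, and 1 marker in each of the last 2 lists had no count in any library.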

How the data were processed

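RNA was measured in 16 libraries of IMR32 cells. Per the labels' protocols, polyadenylated RNA was sequenced as paired 150 bp reads, and the submitters' processing notes name GRCh38, HISAT2 2.2.1 and featureCounts 2.0.1, with Trimmomatic 0.39 and FastQC 0.11.9. The authors deposited raw counts per gene with the gene coordinates and exonic lengths, which equal those of GENCODE 29 for all 58735 genes. How strand and reads with several matches were handled is not given in the sources used here, so genes that share sequence or overlap another gene are uncertain. Libraries were assigned to groups from their titles.

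Counts were filtered with filterByExpr, which left 22433 genes (the others held no more than 0.0654% of a library's counts). The quasi-likelihood test of edgeR 4.0.16 (R 4.3.3) was run on TMM-scaled libraries with 1 mean per treatment, 12 residual degrees of freedom, two-sided tests and a prior count of 0.125. SE is the log2 difference divided by the square root of F. The script was tested on simulated data. The members and lists were chosen with earlier results of these data known. Names follow a fixed rule: all 8 genes, all further minor-spliceosome proteins that passed the filter, the 3 smallest p in the combination from each other list plus U2AF1 and SNRNP70, and the 3 largest called rises and falls among the U12-type genes with a mean of at least 5 CPM; overlapping neighbours were added because they share bases. The U12-type intron result was planned only for a case with a genome; none was used here, and the readable introns were added afterwards. Alternatives were upper-quartile and RLE scaling, DESeq2 1.42.0, no filter, a replicate block, only the groups compared, each library left out, and a GC offset over 20 bins, added after the data were seen; 13 tested genes without a transcript sequence took the median GC there.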

Additional observations from a re-analysis of the deposited data

Results flagged for a closer look

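In 2 of the 32 groups formed by the 8 genes and 4 treatments, a single library stood apart by Dixon's criterion for 4 values; chance gives about 1 in 20 groups. ZRSR2 in combination replicate 4 was the highest of its group at 13.3 CPM, with a gap of 0.883 of the range, and every combination library, with or without it, was above every library of the other treatments. ZCRB1 in indisulam replicate 1 was the lowest of its group at 50.99 CPM, with a gap of 0.862 of the range. What sets either library apart was not tested.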

How the results depend on the processing

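For the 8 genes, 48 log2 differences were recomputed under up to 23 alternatives each: 1053 values kept their call, 23 lost it, 20 gained one and none reversed, and 32 differences kept their call throughout. The number of members lower in indisulam ranged from 1 to 2 over the left-out libraries. With the GC offset SNRNP48 took the place of SNRNP25 among them. Members higher in the combination than in indisulam were 5 with the GC offset. Members higher in the combination than in alectinib were 4 with upper-quartile scaling and 2 to 4 over the left-out libraries. Members lower there were 1 with upper-quartile scaling, RLE scaling or the GC offset, 0 with DESeq2 or with only the groups compared, and 0 to 2 over the left-out libraries. Members with a positive interaction were 1 with the GC offset and 0 to 1 over the left-out libraries. With the GC offset, the genes called higher over the whole table were 3481 in alectinib and 2557 for the interaction, against 2242 and 1537; the cause was not tested.

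Upper-quartile scaling moved the median of all genes in the combination from 0.007 to 0.13 and turned 2242 higher and 2767 lower genes in alectinib into 3285 and 1848. Without the branch-point requirement, which takes in more genes, 43 genes with a readable intron of the stated 5′ and 3′ ends were tested. Of these 43, 20 were higher and 15 lower in the combination, where 29.7% and 30.6% of all tested genes were. The ends alone do not show that an intron is of the U12 type. Any pairing of the libraries by replicate number was weak. Same-numbered libraries of different treatments deviated with correlations of -0.063 to 0.168, and 5 of these 24 pairs were over 0.1. For different numbers the correlations were -0.16 to 0.108. With the replicate block, alectinib gave 2425 higher and 3065 lower genes, against 2242 and 2767 without it. The interaction gave 1821 and 1741 with the block, against 1537 and 1488. ZMAT5 was called higher in the combination than in alectinib with the block (0.29, adjusted p = 0.029). The block changed no other member's call. For the named genes outside the 8, no called change printed for the combination lost its call or reversed. The lowest counts, 269 to 461 per library for ZMAT5, limit what can be detected there.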
